A study of Homo sapiens with 16 samples.

Results

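The mRNA of HBE cells, a human lung epithelial line, was compared between 1 library from cells with a stable knockdown of FLII and 1 library from cells labelled NC. These were 2 of the 16 libraries of the series. The others hold RNA of the same cells bound to ribosome-nascent chain complexes or taken from cytosol and nuclei, and RNA of H1299 lung carcinoma cells with or without extra FLII. The knockdown-FLII cells carried lentiviral short hairpin vectors against FLII, and the NC cells were their control, with no further description of NC in the labels. Both were grown in the same serum-containing medium and used at passage 15 to 18. How many hairpins were used, and whether the line was a clone or a pool, is not given in the sources used here. The question put to the pair was which gene programmes stood at other mRNA levels in cells with less FLII.

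FLII (flightless I) is a leucine-rich repeat protein of the gelsolin family, whose members sever and cap actin filaments. It is also known as a coactivator of nuclear receptors and as a negative regulator of wound repair in skin. Airway epithelium is a layer in which basal cells give rise to secretory and ciliated cells, held on a basement membrane of laminin and collagen. Programmes of matrix, differentiation, lipid synthesis, division and inflammation are set in it by well-studied pathways such as TGF-beta, Notch, SREBP, E2F and NF-kB, and genes of each were followed here.

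Each gene had a deposited read count and an RPKM (reads scaled to gene length and library size). The knockdown-FLII library held 7509828 reads assigned to genes and the NC library 8275887. A minimum of 100 summed reads left 10405 of 23709 genes. The log2 fold is knockdown-FLII over NC after TMM scaling with 0.5 reads added, and its 95% interval is the exact conditional binomial one. A gene was called when its fold was at least 2 in either direction and the interval excluded no change. With 1 library a side no test between conditions is possible: each fold compares 2 libraries, and each interval covers counting error only. In bulk RNA, fewer cells of a type and less RNA per cell cannot be told apart.

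Epithelial identity was checked first. All 10 epithelial markers were detected in both libraries, with a summed level of 4834 RPKM in knockdown-FLII and 3979 RPKM in NC. Keratin KRT17 led both sums, with 2766 RPKM in knockdown-FLII and 2107 RPKM in NC. By log2 fold 7 of the 10 markers were below 0, with a median of −0.12. Fibroblast markers summed to 37.5 RPKM in knockdown-FLII and 28.7 RPKM in NC over 14 genes, of which 7 were at 0 in knockdown-FLII and 6 in NC. THY1, LUM and COL3A1 were at 0 in both, and the mesenchymal filament gene VIM had 23 reads in knockdown-FLII and 49 in NC. Leukocyte markers summed to 33.5 RPKM in knockdown-FLII and 47.6 RPKM in NC over 10 genes, most of it from CD68. Endothelial markers summed to 21.4 RPKM in knockdown-FLII and 8.27 RPKM in NC over 8 genes, of which the cadherin CDH5 gave 19.3 RPKM in knockdown-FLII and 5.45 RPKM in NC, with KDR and TEK at 0 in both.

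FLII itself (NM_002018) had 450 reads and 13.8 RPKM in knockdown-FLII, against 2716 reads and 75.3 RPKM in NC. Its log2 fold was −2.58 (95% interval −2.73 to −2.44). The libraries of cytosol and nuclear RNA from the same line showed it lower as well, at −2.94 and −2.98. FLII thus followed the labels in all of these pairs. Of the other gelsolin-family genes and FLII partners on the list, SVIL (supervillin), which ties actin and myosin to membranes, was called higher with 159 reads in knockdown-FLII and 73 in NC (1.13, 0.72 to 1.55). GSN (gelsolin) stood at −0.17, CAPG at −0.58, and LRRFIP1 and LRRFIP2, whose products bind FLII, at 0.25 and 0.29, none of which was called.

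In all, 107 genes (1.03% of those tested) were called higher in knockdown-FLII and 199 (1.91%) lower, so that 2.94% were called either way. Counts of calls in each list below are to be read against these shares. Scaled by total counts the split was 165 higher and 146 lower, because that scaling moved the median of all genes by 0.13. Higher genes thus made up 34.97% of the calls with TMM and 53.1% with total counts. Most calls lay outside the lists followed here: 84 called genes were on a list and 222 on none. Of 133 tested genes whose level in H1299 vector cytosol or nuclear RNA was 8 times that in HBE NC or more, 9 were called higher, among them FBN1, PLAU, CCL5 and MSRB3, and 6 lower. Without these genes 98 were higher and 193 lower. The levels of genes from each programme are shown for both libraries in the plot of deposited RPKM.

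**Figure D1:**
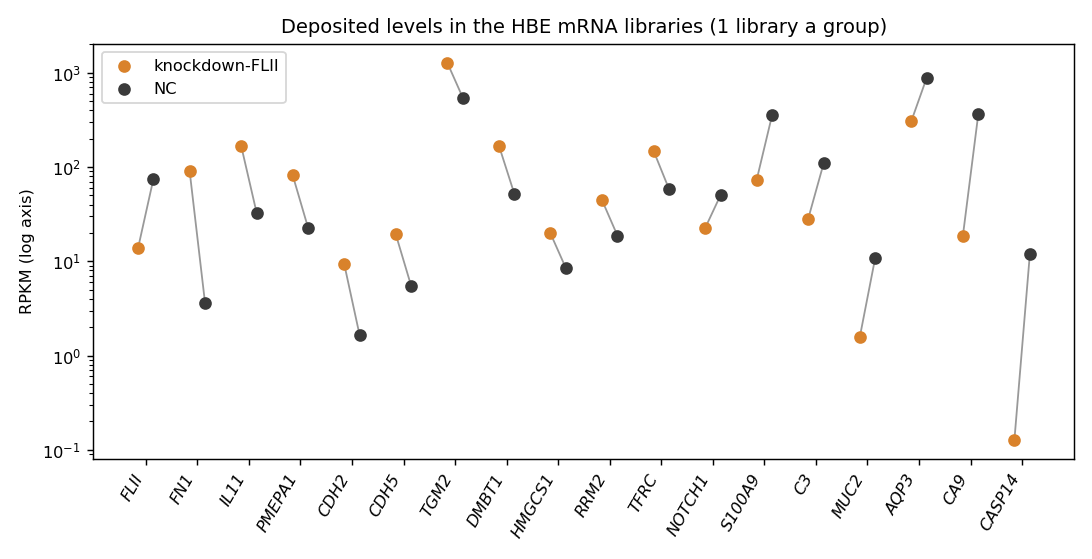
Deposited level (RPKM, log axis) of 18 genes in the HBE mRNA libraries, with knockdown-FLII (orange) left of NC (black) for each gene and 1 library a group, so there are no error bars. FN1, IL11, CDH2 and DMBT1 were higher in knockdown-FLII, and FLII, MUC2, CA9 and CASP14 lower.

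Matrix genes split by kind. A few genes of fibrillar and provisional matrix stood far higher in knockdown-FLII, while collagens, laminins and proteoglycans lay on both sides of 0, with 1 call. Of 10 laminin and basement membrane genes, 4 had an interval wholly above 0 and 5 wholly below. Of 13 collagens, 6 had one wholly above 0 and 3 wholly below. Of 69 matrix genes listed, 42 passed the read minimum; 4 were called higher and 1 lower, and the list median was 0.13 against 0.00 for all genes tested. The 27 others had fewer than 100 reads over the pair.

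Among the glycoproteins, FN1 (fibronectin, NM_212482), which cells assemble into fibrils through integrins, led all higher genes. It had 6050 reads in knockdown-FLII and 263 in NC, or 91.6 RPKM against 3.61 RPKM (log2 fold 4.53, 4.36 to 4.72). The microfibril gene MFAP5 had 348 reads in knockdown-FLII and 47 in NC (2.88, 2.46 to 3.37). FBN1 (fibrillin 1), the backbone of microfibrils, had 146 reads in knockdown-FLII and 59 in NC (1.31). Fibroblasts are a known source of these glycoproteins. The 3 fibroblast markers that passed the read minimum were all above 0, with a median of 0.34. Of the 11 under it, VIM had 23 reads in knockdown-FLII and 49 in NC, and PDGFRB 1 and 4. COL1A2 had 0 and 3, DCN 0 and 1, and PDGFRA 1 and 0. The 14 markers summed to 37.5 RPKM in knockdown-FLII and 28.7 RPKM in NC, of which TWIST2 gave 17.4 and 14.9 RPKM. THY1, LUM and COL3A1 were at 0 in both. The part of fibroblasts in the matrix values was not tested. LTBP4, a fibrillin-like protein that holds latent TGF-beta, was called lower with 144 reads in knockdown-FLII and 321 in NC (−1.14), and with the GC trend removed it was at −0.99 and no longer called. Tenascin TNC (0.66) and thrombospondin THBS1 (0.40) were not called.

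COL18A1, the basement membrane collagen from which endostatin is cut, was the collagen called higher, with 358 reads in knockdown-FLII and 111 in NC (1.70, 1.39 to 2.02). The fibrillar collagen COL5A1 (0.86) and the anchoring-fibril collagen COL7A1 (0.45) had intervals above 0 but were not called. Among laminin chains that anchor epithelium were LAMA3 with 1505 reads in knockdown-FLII and 764 in NC (0.99) and LAMB3 with 4725 reads in knockdown-FLII and 3712 in NC (0.36). LAMA3 stopped just short of the fold needed for a call, and passed it, at 1.01, with the GC trend removed. The chains LAMB1, LAMB2, LAMC1 and LAMA5 lay below 0, with LAMA5 at −0.46, and the large proteoglycan of basement membranes, perlecan (HSPG2), had 1105 reads in knockdown-FLII and 2174 in NC (−0.97). The 10 tested genes of the laminin and basement membrane group, with COL18A1 counted among the collagens, thus differed in both directions, and none was called as measured.

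Enzymes that process matrix were also divided. The transglutaminase TGM2, which crosslinks matrix proteins, had 37509 reads in knockdown-FLII and 17671 in NC, or 1274 RPKM against 545 RPKM (1.10, 1.07 to 1.12). LOX (lysyl oxidase), which crosslinks collagen and elastin, had 10 reads in knockdown-FLII and 111 in NC (−3.40, −4.56 to −2.53). The collagen prolyl hydroxylase subunits P4HA1 (−1.49) and P4HA2 (−1.04) were called lower too, and all 3 of these lower genes are also known targets of the hypoxia response. The plasminogen activators went opposite ways, with urokinase PLAU at 1.24 (111 reads in knockdown-FLII, 47 in NC) and tissue-type PLAT at −1.07 (220 reads in knockdown-FLII, 465 in NC). In total 2 of 25 matrix enzymes and inhibitors were called higher and 4 lower, against 1.03% and 1.91% of all genes tested. Their median was −0.18. Among 12 integrin chains, the fibronectin receptor chain ITGA5 was the single call, with 285 reads in knockdown-FLII and 917 in NC (−1.67, −1.87 to −1.48). Its partner ITGB1 was at 0.02. Fibronectin and the alpha chain of its classical receptor therefore differed in opposite directions between these libraries.

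Mesenchymal and contractile genes gave 3 calls higher and 1 lower of 17, against 1.03% and 1.91% of all genes tested. Their median was 0.05. N-cadherin (CDH2) had 306 reads in knockdown-FLII and 59 in NC (2.37, 1.98 to 2.81). The actin-binding smooth muscle gene TAGLN had 98 reads in knockdown-FLII and 10 in NC (3.24, 2.36 to 4.41). TAGLN stood the other way in cytosol RNA, with 89 reads in knockdown-FLII and 121 in NC (−0.61, −1.025 to −0.21). In nuclear RNA TAGLN was at −0.40 (−0.93 to 0.13). The filament gene NES (nestin) had 90 reads in knockdown-FLII and 36 in NC (1.32). Smooth muscle actin ACTA2 was called lower, with 46 reads in knockdown-FLII and 107 in NC (−1.20). Of the transcription factors of epithelial-mesenchymal transition on the list, TWIST2 (0.10) and SNAI2 (0.05) passed the read minimum and neither was called. Epithelial cadherin CDH1 was at −0.20 and EPCAM at −0.21. No member of 34 epithelial junction genes was called in either direction, with 12 of 34 above 0 and a median of −0.14.

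TGF-beta is a cytokine that acts through receptor kinases and SMAD proteins and is known to raise matrix genes. Among 27 genes of its pathway the targets IL11 and PMEPA1 were called higher. IL11, a cytokine of the IL-6 family, had 3007 reads in knockdown-FLII and 646 in NC (2.23, 2.10 to 2.35). PMEPA1, a feedback inhibitor of SMAD signalling, had 3027 reads in knockdown-FLII and 919 in NC (1.73, 1.62 to 1.84). PMEPA1 stood the other way in nuclear RNA (−0.25, −0.33 to −0.165) and was at −0.02 in cytosol RNA. IL11 was above 0 in both, at 0.28 in nuclear and 0.26 in cytosol RNA. Other classical targets were not called: ID1 was at −0.82, CTGF at −0.57 and SMAD7 at 0.32. Receptors and SMADs gave no call, with TGFBR1 at 0.64 and SMAD3 at −0.65. The stress cytokine GDF15 was called lower at the very edge of the rule, with 1516 reads in knockdown-FLII and 3055 in NC, and was at −0.85 with the GC trend removed. The pathway median was 0.04. Without genes that H1299 cells express at 8 times the HBE level or more, it was 0.25 over the members that remained.

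Targets of the YAP and TEAD factors, which respond to actin tension, showed little common movement: 1 of 19 was called higher and none lower, and the median was 0.09. That call was F3 (tissue factor), which starts coagulation, with 2332 reads in knockdown-FLII and 806 in NC (1.54, 1.43 to 1.66). NT5E (CD73) followed at 0.91 without a call. The classical targets CYR61 (0.09) and CTGF (−0.57) were not called either.

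**Figure D2:**
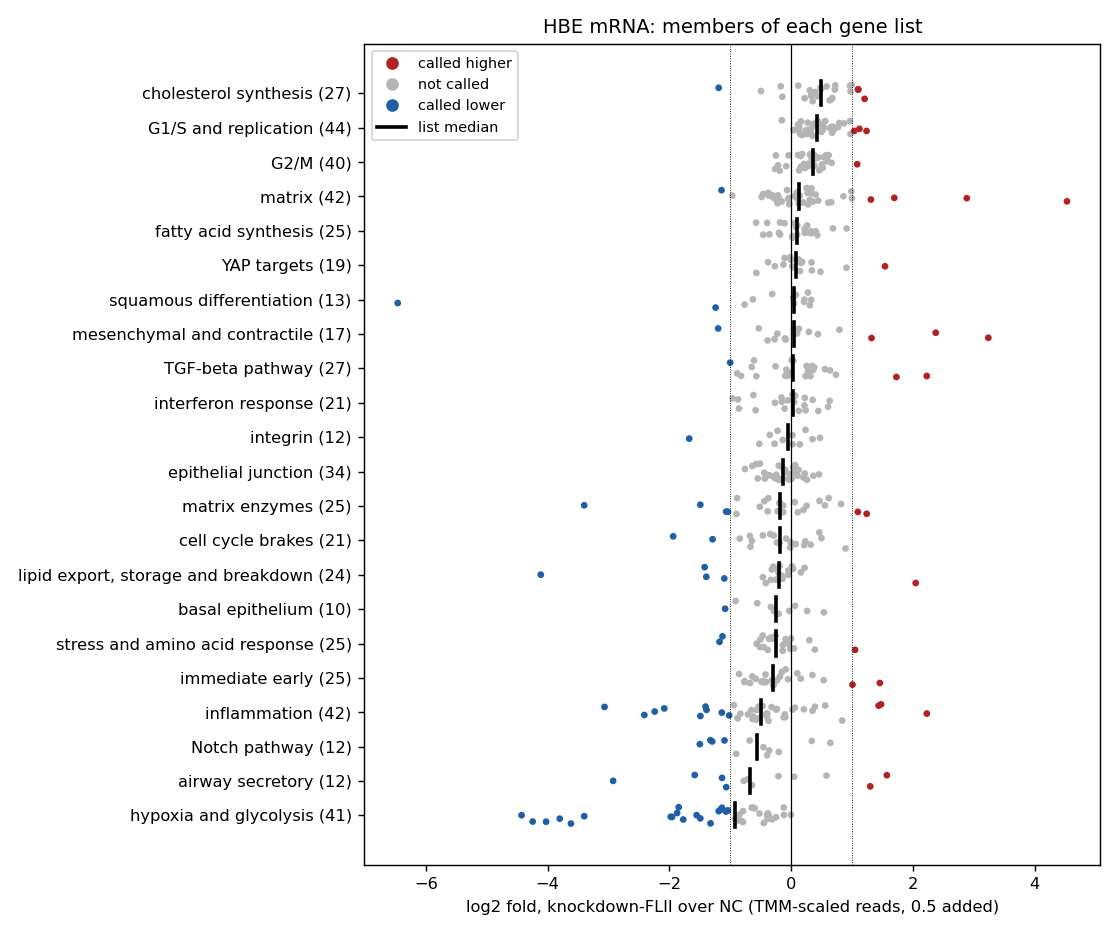
Log2 fold (knockdown-FLII over NC, HBE mRNA) of every tested member of 22 gene lists, with the number tested in brackets; red points were called higher, blue lower and grey not called, the black bar is the list median and dotted lines mark a 2-fold difference. The cholesterol, G1/S and G2/M lists lie right of 0 as a body. Called higher were 3 of 27, 3 of 44 and 1 of 40 of their members, against 1.03% of all genes tested, and 1 cholesterol gene was called lower. The inflammation, Notch, airway secretory and hypoxia lists lie left of 0.

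Differentiation genes came next. Squamous differentiation, the keratinocyte programme, lay mostly under the read minimum: 13 of 59 listed genes passed it, 2 were called lower and none higher. CASP14, a caspase of the cornified layer, had 3 reads in knockdown-FLII and 310 in NC (−6.46, −8.97 to −5.12). GRHL1, a transcription factor of the epidermal barrier, had 93 reads in knockdown-FLII and 222 in NC (−1.24). The profilaggrin gene FLG was at −0.76 and the envelope genes EVPL and PPL at 0.08 and 0.05. PADI3, a deiminase of hair follicle and epidermal proteins, is not on this list but is among the 15 lower genes with the interval farthest from 0, with 32 reads in knockdown-FLII and 276 in NC (−3.08, −3.67 to −2.57). The 4 suprabasal keratin and desmosome genes were all above 0, with a median of 0.21, and the median of the 13 was 0.05. Basal epithelial genes gave 1 call lower of 10, the neurotrophin receptor NGFR (−1.08, and −0.93 with the GC trend removed). The basal master regulator TP63 had 626 reads in knockdown-FLII and 1187 in NC (−0.91), and the basal keratin KRT5 was at −0.03.

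Airway secretory genes were mostly lower in knockdown-FLII, with exceptions. Of 39 listed, 12 passed the read minimum. Of these, 2 were called higher and 4 lower, against 1.03% and 1.91% of all genes tested. The list had 4 members above 0 and a median of −0.68. The gel-forming mucins were MUC2 with 101 reads in knockdown-FLII and 775 in NC (−2.92, −3.24 to −2.63) and MUC5B with 547 reads in knockdown-FLII and 1154 in NC (−1.07). The secreted defence protein BPIFB1 had 54 reads in knockdown-FLII and 164 in NC (−1.58). SPDEF, a driver of goblet cell differentiation, had 54 reads in knockdown-FLII and 120 in NC (−1.14). MUC5B (−0.91) and SPDEF (−0.98) were no longer called with the GC trend removed. Against these stood DMBT1, a scavenger glycoprotein of mucosal fluid, with 9760 reads in knockdown-FLII and 3305 in NC, or 169 RPKM against 52.0 RPKM (1.57, 1.51 to 1.63), and the retinal dehydrogenase ALDH1A3 with 3562 reads in knockdown-FLII and 1457 in NC (1.30). The protease inhibitor SLPI (−0.64) and lipocalin LCN2 (−0.72) were lower without a call. Of 18 ciliated cell genes the single one above the read minimum, the dynein DNAH11, was called lower at −1.27.

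Notch signalling is a pathway through which neighbouring cells fix secretory fates in airway epithelium. Of its 12 tested genes 4 were called lower, against 1.91% of all genes tested, and none higher. The list had 2 members above 0 and a median of −0.57. The receptor NOTCH1 had 1565 reads in knockdown-FLII and 3871 in NC (−1.30, −1.38 to −1.21). The ligands DLL1 (−1.33, 177 reads in knockdown-FLII and 448 in NC) and JAG2 (−1.09, 1860 reads in knockdown-FLII and 4001 in NC) were called lower, and JAG1 was at −0.68. NRARP, a feedback target of the pathway, had 374 reads in knockdown-FLII and 1066 in NC (−1.50). The receptor NOTCH3 (−0.90) and the targets HES1 (−0.45) and HES4 (−0.39) were not called. The transcripts of these genes are rich in G and C, with a median GC content of 60.5% against 49.9% over all genes tested. With the GC trend removed the list median was −0.57 again, while JAG2 was at −0.94 and no longer called.

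Cholesterol synthesis and uptake genes were mostly higher in knockdown-FLII, with 23 of 27 above 0. Of the 27, 3 were called higher and 1 lower, against 1.03% and 1.91% of all genes tested. Of 20 tested enzymes of cholesterol synthesis, the pathway that SREBP-2 controls when sterols are scarce, 19 had a log2 fold above 0, against 50% of all genes tested, and 18 an interval wholly above 0, against 21.5% of all. Their median was 0.61. HMGCS1, which makes the HMG-CoA used by the pathway, had 810 reads in knockdown-FLII and 381 in NC (1.10, 0.92 to 1.28). MSMO1, a sterol demethylating enzyme, had 883 reads in knockdown-FLII and 413 in NC (1.10, 0.94 to 1.28). The isomerase IDI1 was at 1.00, the epoxidase SQLE at 0.97 and the demethylase CYP51A1 at 0.72. HMGCS1 and MSMO1 were both at 0.98 with the GC trend removed, so that no enzyme was called, while the median of the enzymes was then 0.56.

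Regulators of sterol supply were mixed. INSIG1, which holds the SREBP escort protein back when sterols are plentiful, had 576 reads in knockdown-FLII and 251 in NC (1.21, 0.99 to 1.43). Its relative INSIG2, which is on the hypoxia list as well, had 99 reads in knockdown-FLII and 228 in NC (−1.19, −1.55 to −0.85). The SREBP-2 gene SREBF2 was at −0.15 and SCAP, the escort protein, at −0.50. Fatty acid synthesis gave no call of 25, with 17 above 0 and a median of 0.10. In that list the desaturase FADS2 was at 0.91 (1.03 with the GC trend removed), whereas fatty acid synthase FASN had 20811 reads in knockdown-FLII and 31234 in NC (−0.58).

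Genes of lipid export, storage and breakdown were lower on balance, with 5 of 24 above 0 and a median of −0.20. Of the 24, 1 was called higher and 4 lower, against 1.03% and 1.91% of all genes tested. The cholesterol exporter ABCA1 had 39 reads in knockdown-FLII and 106 in NC (−1.42). ANGPTL4, an inhibitor of lipoprotein lipase and a hypoxia target, had 14 reads in knockdown-FLII and 252 in NC (−4.11), and the lipid droplet gene HILPDA 84 reads in knockdown-FLII and 223 in NC (−1.39). The fatty acid carrier FABP5 was at −1.10. Endothelial lipase LIPG, which acts on HDL phospholipids, was the higher gene, with 543 reads in knockdown-FLII and 132 in NC (2.05, 1.77 to 2.34).

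Cell cycle genes showed a broad difference of one sign and small size. Of 44 tested genes of the G1/S transition and DNA replication, 43 had a fold above 0 (50% of all genes did), with a median of 0.43. Of the 44, 3 were called higher, against 1.03% of all genes tested. Of 40 genes of G2 and mitosis 34 were above 0, with a median of 0.36 and 1 called higher. Many G1/S genes are driven by E2F factors, and many G2/M genes carry a cell cycle homology region (CHR) bound by the MuvB complex. The promoters of CDC6 and UHRF1, G1/S genes with an E2F match, and of NDC80, the G2/M gene called higher, are shown to place these letters. Each runs from 250 bases before the RefSeq gene start to 50 after it on GRCh38.p14, plus strand, at chr17:40287629-40287928 for CDC6, chr19:4909251-4909550 for UHRF1 and chr18:2571307-2571606 for NDC80. Capitals mark the match to E2F (TTTCCCGC or TTTGGCGC) or CHR (TTTGAA), in either strand:
CDC6: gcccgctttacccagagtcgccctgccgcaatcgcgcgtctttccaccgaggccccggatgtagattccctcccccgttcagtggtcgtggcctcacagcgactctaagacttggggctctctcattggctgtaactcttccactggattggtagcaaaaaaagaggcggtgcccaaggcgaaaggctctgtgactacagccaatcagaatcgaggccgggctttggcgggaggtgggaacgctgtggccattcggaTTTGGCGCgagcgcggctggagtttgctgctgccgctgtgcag
UHRF1: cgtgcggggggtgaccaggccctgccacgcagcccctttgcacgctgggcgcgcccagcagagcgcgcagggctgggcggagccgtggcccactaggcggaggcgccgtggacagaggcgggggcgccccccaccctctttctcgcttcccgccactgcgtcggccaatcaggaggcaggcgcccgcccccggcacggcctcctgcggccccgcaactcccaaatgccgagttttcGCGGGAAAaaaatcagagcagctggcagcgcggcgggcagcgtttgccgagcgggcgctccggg
NDC80: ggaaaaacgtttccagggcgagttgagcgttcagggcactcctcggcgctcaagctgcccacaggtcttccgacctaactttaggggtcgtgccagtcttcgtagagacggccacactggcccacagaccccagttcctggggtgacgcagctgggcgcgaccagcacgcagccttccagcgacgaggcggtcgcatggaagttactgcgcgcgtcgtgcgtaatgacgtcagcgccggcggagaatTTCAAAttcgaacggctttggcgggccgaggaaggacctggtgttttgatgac

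E2F letters were in 18 of the 38 G1/S genes with a RefSeq promoter (47.4%), against 2.31% of 27305 promoters. CHR letters were in 22 of 33 G2/M promoters (66.7%), against 15.4% of all. Motifs were searched separately, and matches of one that overlap another were kept. The median fold was 0.48 in G1/S genes with the E2F letters and 0.33 in those without, and 0.40 in G2/M genes with the CHR letters and 0.31 in those without. The sterol regulatory element, searched as TCAC, any base and CCAC, was in 1 of 20 cholesterol gene promoters (5.0%), that of SREBF2, against 1.15% of all. RBPJ letters (GTGGGAA) were in 2 of 11 Notch gene promoters (18.2%), against 6.28%, and TEAD letters (CATTCC) in 4 of 13 promoters of YAP targets (30.8%), against 14.05%. A match is a description of letters in this window and not a bound site.

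By role, the 12 G1/S regulators had the highest median of the 3 roles, 0.68. Cyclin E2 (CCNE2), which activates CDK2, had 78 reads in knockdown-FLII and 33 in NC (1.24, 0.65 to 1.88). UHRF1, which carries DNA methylation through replication, had 1767 reads in knockdown-FLII and 905 in NC (0.97, and 1.07 with the GC trend removed), and the licensing factor CDC6 had 392 reads in knockdown-FLII and 228 in NC (0.79). E2F1 was at 0.65 and CDC25A at 0.68, and the licensing factor CDT1 (−0.15) was the list member below 0. The replication machinery had a median of 0.35 over 25 genes. MCM10, which helps start the replicative helicase, had 229 reads in knockdown-FLII and 112 in NC (1.04, and 0.997 with the GC trend removed, which is just under the rule). MCM6 was at 0.87, PCNA at 0.50 and MCM2 at 0.13. In nucleotide supply, the ribonucleotide reductase subunit RRM2 had 1150 reads in knockdown-FLII and 532 in NC (1.12, 0.97 to 1.27), and the other subunit RRM1 was at 0.53.

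In G2 and mitosis the kinetochore gene NDC80 had 148 reads in knockdown-FLII and 70 in NC (1.08, 0.67 to 1.52), and was at 0.97 with the GC trend removed. The proliferation marker MKI67 had 3001 reads in knockdown-FLII and 2288 in NC (0.40), topoisomerase TOP2A was at 0.39, CDK1 at 0.51 and FOXM1, a driver of mitotic genes, at 0.46. CCNB1 (0.16) and PLK1 (0.11) differed less. Of 16 CDK inhibitor and growth arrest genes, 2 were called lower and none higher, with 4 above 0 and a median of −0.29. The 5 D cyclins and CDKs kept on the same list had a median of 0.07 and no call. MXI1, an antagonist of MYC, had 73 reads in knockdown-FLII and 283 in NC (−1.94, −2.34 to −1.57), and the stress gene GADD45B 48 reads in knockdown-FLII and 119 in NC (−1.29). The inhibitors CDKN1A (0.50) and CDKN2C (0.89) lay above 0. Total counts would add 0.13 to each of these folds.

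Inflammation genes were mostly lower in knockdown-FLII. Of 42 tested, 9 were called lower and 3 higher, against 1.91% and 1.03% of all genes tested. The list had 10 members above 0 and a median of −0.50. Among chemokines, CXCL1, which attracts neutrophils, had 29 reads in knockdown-FLII and 83 in NC (−1.49, −2.17 to −0.88). IL8 had 30 reads in knockdown-FLII and 80 in NC (−1.39). CCL5, which attracts T cells, was called higher with 164 reads in knockdown-FLII and 59 in NC (1.48). Because NF-kB is known to bind near several of these genes, the promoters of CXCL1 (chr4:73869143-73869442) and of the NF-kB inhibitor TNFAIP3 (chr6:137867009-137867308) are shown from the same RefSeq table, build and plus strand. Capitals mark the NF-kB letters, GGGNN followed by TTTCC or TTCCC, in either strand:
CXCL1: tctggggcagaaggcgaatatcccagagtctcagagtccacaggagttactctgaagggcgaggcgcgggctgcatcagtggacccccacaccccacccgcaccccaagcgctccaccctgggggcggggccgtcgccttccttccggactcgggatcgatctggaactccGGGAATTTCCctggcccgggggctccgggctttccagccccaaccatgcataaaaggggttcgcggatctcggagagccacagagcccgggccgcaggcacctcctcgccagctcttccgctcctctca
TNFAIP3: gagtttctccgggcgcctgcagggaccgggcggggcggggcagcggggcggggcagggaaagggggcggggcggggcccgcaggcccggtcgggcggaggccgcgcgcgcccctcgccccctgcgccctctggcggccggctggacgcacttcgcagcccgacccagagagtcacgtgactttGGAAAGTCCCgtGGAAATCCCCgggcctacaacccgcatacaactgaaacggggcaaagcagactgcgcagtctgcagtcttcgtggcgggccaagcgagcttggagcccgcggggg

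These letters were in 8 of 26 promoters of the chemokine, cytokine and NF-kB genes (30.8%), against 3.87% of all promoters. The genes with the letters had a median fold of −0.39 and those without −0.55.

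Cytokines were divided. IL1B, a main alarm cytokine, had 411 reads in knockdown-FLII and 912 in NC (−1.14, −1.31 to −0.97), and IL1A was at −0.88. IL11, given above, and TNFSF15 (1.44, 181 reads in knockdown-FLII and 67 in NC) were called higher. Of 19 NF-kB subunits and regulators, 14 had an interval wholly below 0, against 24.9% of all genes tested, and 1 wholly above, with a median of −0.52. RELB, the subunit of the alternative pathway, had 90 reads in knockdown-FLII and 241 in NC (−1.41), and the deubiquitinating inhibitor TNFAIP3 had 64 reads in knockdown-FLII and 131 in NC (−1.02). The feedback inhibitor NFKBIA was at −0.57 and TNIP1 at −0.88, while the subunits NFKB1 (0.02) and RELA (−0.12) differed little.

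Complement and acute-phase genes lay lowest of the inflammatory roles, with 4 of 8 called lower, none above 0 and a median of −1.37. Complement C3 had 1082 reads in knockdown-FLII and 4619 in NC, or 28.3 RPKM against 109 RPKM (−2.08, −2.18 to −1.99). The calprotectin subunits S100A8 and S100A9, which bind metal ions in mucosal defence, were at −3.07 (31 reads in knockdown-FLII, 265 in NC) and −2.41 (316 reads in knockdown-FLII, 1694 in NC). S100P had 150 reads in knockdown-FLII and 716 in NC (−2.24). CD14, a receptor for bacterial lipopolysaccharide, is on the leukocyte marker list and is not counted among these 8 genes. It had 78 reads in knockdown-FLII and 258 in NC (−1.71), while the leukocyte gene CD53 was at 0 in both libraries. Interferon targets gave no call of 21, with a median of 0.02 that turned negative under some alternatives. The membrane proteins IFITM1 (−0.96) and IFITM3 (−0.86), which resemble each other enough to share reads, were among the lowest of these.

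The lists named for hypoxia, immediate early and stress genes are given for context. All 41 hypoxia and glycolysis genes had a fold at or below 0, 20 were called lower and the median was −0.92. The glycolytic aldolase ALDOC was at −1.55 and the pyruvate dehydrogenase kinase PDK1 at −1.87, and the carbonic anhydrase CA9 had 216 reads in knockdown-FLII and 4692 in NC (−4.43). Several genes counted above for other programmes sit on this list too, namely LOX, P4HA1, P4HA2 and INSIG2. Of 25 immediate early genes, 2 were called higher, NR4A2 (1.01) and NR4A3 (1.46), and none lower, although 6 were above 0 and the median was −0.30. NR4A2 was not called with the GC trend removed (0.97), nor with median-of-ratios scaling or 5 reads added (0.997 in both). MYC was at −0.86 and FOS at −0.68. Of 25 stress and amino acid response genes, the mTOR inhibitor DDIT4 (−1.18, 8990 reads in knockdown-FLII and 20468 in NC) and the lipoprotein receptor VLDLR (−1.13) were called lower and the cystine transporter SLC7A11 (1.05) higher, with a median of −0.26.

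Genes outside the lists included several with large counts. The transferrin receptor TFRC, which imports iron, had 5836 reads in knockdown-FLII and 2527 in NC (1.22, 1.15 to 1.28), and the ferroxidase ceruloplasmin (CP) had 32 reads in knockdown-FLII and 243 in NC (−2.90). The water and glycerol channel AQP3 had 4302 reads in knockdown-FLII and 13742 in NC (−1.67). The Wnt antagonists SFRP1 (1.38, 1696 reads in knockdown-FLII and 656 in NC) and DKK1 (1.02, 1629 reads in knockdown-FLII and 811 in NC) were both called higher. DKK1 was at 0.94 with the GC trend removed, which is no call, and at −0.31 (−0.53 to −0.09) in cytosol and −0.24 (−0.33 to −0.16) in nuclear RNA of the line, both in the opposite direction. The secreted protease HTRA1 had 4924 reads in knockdown-FLII and 1837 in NC (1.43), and the phosphatase DUSP10, which acts on stress kinases, 104 reads in knockdown-FLII and 20 in NC (2.36).

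Cytoskeletal and receptor genes were among the lower ones. Cytoplasmic actin ACTG1 had 7111 reads in knockdown-FLII and 14924 in NC (−1.06, −1.10 to −1.02). It was at −0.97 with the GC trend removed and −0.93 with total counts, and no longer called. LRP1, an endocytic receptor, had 2261 reads in knockdown-FLII and 5097 in NC (−1.16). It stood the other way in cytosol RNA (0.61, 0.30 to 0.93) and nuclear RNA (0.54, 0.38 to 0.69). The hyaluronan synthase HAS3 was at −1.22, the p53 relative TP73 at −1.87, the growth factor receptor FGFR3 at −1.95 and the prostaglandin synthase PTGS2 at −1.07. The hormones STC1 (−1.34) and STC2 (−1.83) were lower, as were the metabolite receptors HCAR2 (−1.69) and HCAR3 (−2.02) and the protease inhibitor SERPINB3 (−1.92). HCAR2, HCAR3 and SERPINB3, and ALPP (1.95) among higher genes, have near-identical copies and ACTG1 has pseudogenes, so their reads may be split with these. CDH5, the cadherin of endothelial junctions, was called higher with 599 reads in knockdown-FLII and 186 in NC (1.69, 1.46 to 1.94) while KDR and TEK were at 0 in both, and the neural adhesion gene L1CAM with 254 reads in knockdown-FLII and 67 in NC (1.92).

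The same line was sequenced as cytosol and nuclear RNA, with 1 library a group, and these pairs were set beside the mRNA values for genes with at least 20 reads. How the fractions were separated is not stated, nor whether the cells were grown together with those of the mRNA libraries. In cytosol RNA 68 of 10884 genes were called higher and 68 lower (0.625% each), and in nuclear RNA 68 (0.55%) higher and 40 (0.323%) lower of 12368. Cholesterol genes had medians of 0.00 in cytosol (13 of 25 above 0) and −0.04 in nuclear RNA (6 of 27). Of the cholesterol enzymes, 10 of 19 were above 0 in cytosol and 3 of 20 in nuclear RNA, beside 19 of 20 in mRNA. G1/S genes had −0.01 in cytosol (21 of 43 above 0) and −0.03 in nuclear RNA (18 of 44). In the same order, inflammation genes had 0.01 and −0.03, Notch genes 0.05 and −0.03, and airway secretory genes 0.06 and −0.10. Matrix genes had 0.11 in cytosol and 0.17 in nuclear RNA, beside 0.13 in mRNA. Matrix enzymes stood above 0 in both, at 0.17 in cytosol (18 of 24 above 0) and 0.18 in nuclear RNA (22 of 25), beside −0.18 in mRNA. Interferon targets had 0.20 in cytosol (17 of 19 above 0) and 0.15 in nuclear RNA (16 of 21), beside 0.02 in mRNA.

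**Figure D3:**
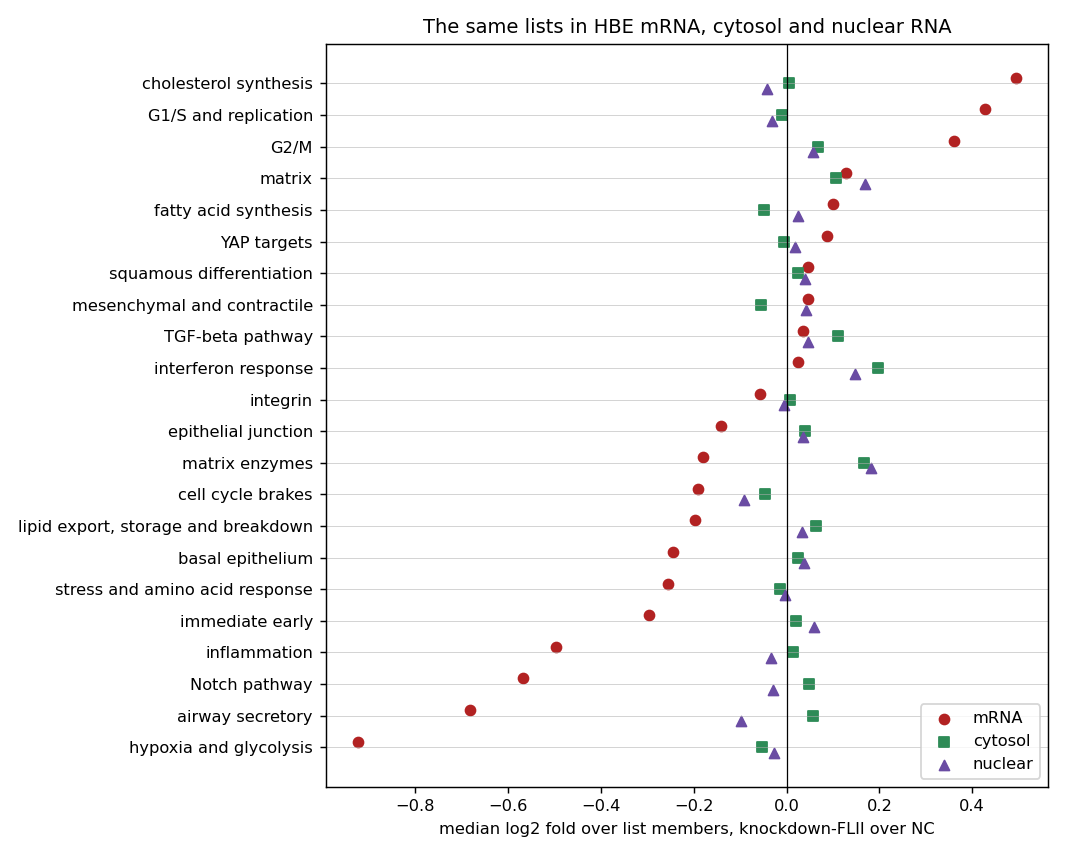
Median log2 fold (knockdown-FLII over NC) of 22 gene lists in HBE mRNA (red circles), cytosol RNA (green squares) and nuclear RNA (purple triangles), 1 library a group and no error bars. Cytosol and nuclear medians lie between −0.10 and 0.20, while those of mRNA run from −0.92 to 0.49.

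Single genes were followed in the same way. Of the 107 genes called higher in mRNA, 84 could be measured in cytosol RNA and 67.9% of these were above 0 there, against 50.2% of genes tested in both. In nuclear RNA 104 could be measured and 76.0% were above 0, against 50.5%. Their median fold was 0.25 in cytosol and 0.22 in nuclear RNA, against 1.25 in mRNA over the genes shared with cytosol. Of the 199 lower genes 63.7% were below 0 in cytosol (171 measured) and 61.3% in nuclear RNA (194 measured), with medians of −0.14 and −0.13. Across genes the mRNA fold had a Spearman correlation of 0.07 with the cytosol fold (9679 genes) and 0.14 with the nuclear fold (10352 genes), and the cytosol fold one of 0.24 with the nuclear fold. Genes are not independent replicates, and the pairs share no libraries.

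Calls in the same direction as in mRNA were few, yet a larger share than over all genes tested. In cytosol RNA they were 4 of 84 higher and 7 of 171 lower genes, against 35 and 42 of all 9679 genes. In nuclear RNA they were 5 of 104 and 7 of 194, against 30 and 14 of all 10352 genes. The same-direction calls in cytosol were HERC6, KANK4, PLAU and PRRT3 among higher genes and ARRDC3, CLIC4, MNX1, S100P, SERPINB3 and TBL1X beside FLII among lower genes. In nuclear RNA they were DMBT1, DPYSL2, FN1, L1CAM and PRRT3 among higher genes and CLIC4, ERRFI1, GGT6, KLHL2, MNX1 and S100P beside FLII among lower genes. Of the genes in these calls, HERC6, PLAU, DPYSL2, CLIC4 and ERRFI1 were at least 8 times higher in H1299 vector cytosol or nuclear RNA than in HBE NC. Fibronectin had 521 reads in knockdown-FLII and 222 in NC in nuclear RNA (1.03, 0.81 to 1.27), but 9 reads in knockdown-FLII and 11 in NC in cytosol RNA (−0.44, −1.91 to 0.95). DMBT1 had 1777 reads in knockdown-FLII and 771 in NC in nuclear RNA (1.01). S100P was at −1.11 in cytosol and −1.30 in nuclear RNA. In contrast, CA9 was at −0.03 and −0.24 and TFRC at 0.08 and 0.01 in those pairs.

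**Figure D4:**
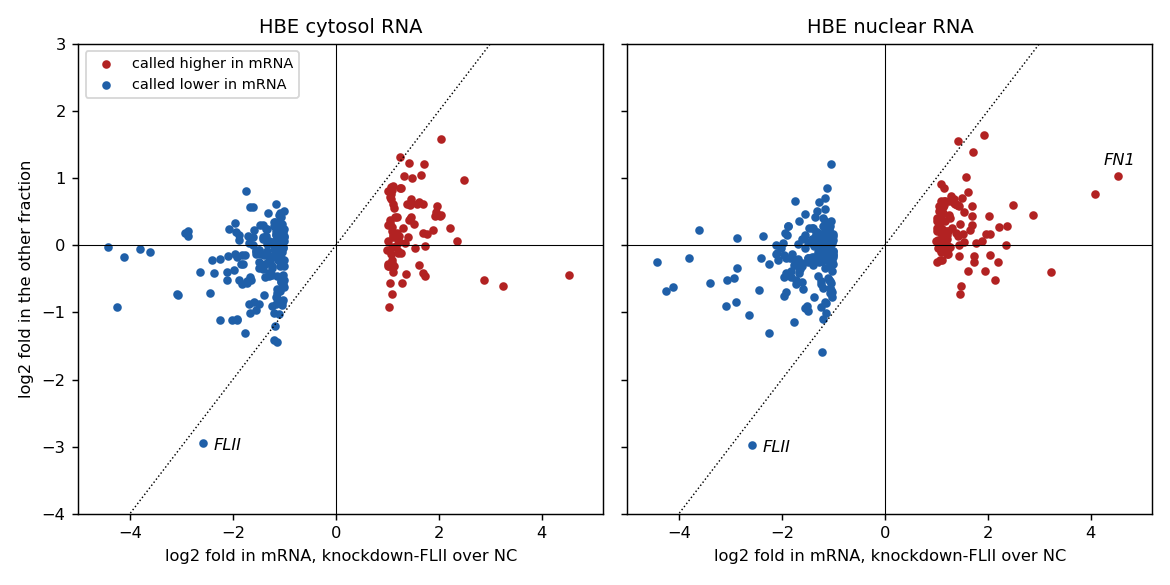
Log2 fold in HBE cytosol RNA (left) and nuclear RNA (right) against that in HBE mRNA, knockdown-FLII over NC, for genes called higher (red) or lower (blue) in mRNA with at least 20 reads in the other pair; the dotted line marks equal folds. FLII lies near the line at −2.58, −2.94 and −2.98, and most other genes lie close to 0 in both fractions.

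Transcript GC content moved with the mRNA folds. The Spearman correlation across 10328 genes was −0.28, and with genes in 5 equal bins of GC content the median fold was 0.12 in the lowest bin and −0.14 in the highest. Genes called higher had a median GC content of 48.3%, those called lower 56.0% and those not called 49.8%. In the highest bin 17 genes were called higher and 68 lower, and in the lowest bin 18 were called each way. The correlation was 0.14 in the cytosol pair and −0.02 in the nuclear pair, and with gene length it was 0.04 in mRNA. A running median over 1001 genes ordered by GC content was then subtracted. After this, 109 genes were called higher, 92 of them among the 107, and 178 lower, 167 of them among the 199.

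With the trend removed, the medians of 8 chosen lists were read again. Those above 0 were 0.54 for cholesterol, 0.42 for G1/S, 0.29 for G2/M and 0.18 for matrix genes. Those below 0 were −0.49 for inflammation, −0.57 for Notch, −0.62 for airway secretory and −1.01 for hypoxia genes. Of the leading genes, FN1 was at 4.55, IL11 at 2.30, S100A9 at −2.34, MUC2 at −2.78 and CASP14 at −6.50. For the 8 lists named here the median kept its sign. The trend was small, with medians of 0.12 in the lowest GC bin and −0.14 in the highest. Genes and list medians far beyond that range could hardly lose their sign, so keeping it says little about GC content. Other lists moved more relative to their size: matrix enzymes were at −0.05 with the trend removed and −0.18 as measured, epithelial junction genes at −0.07 and −0.14, TGF-beta pathway genes at 0.12 and 0.04, and squamous genes at 0.15 and 0.05. The interferon median turned to −0.02.

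**Figure D5:**
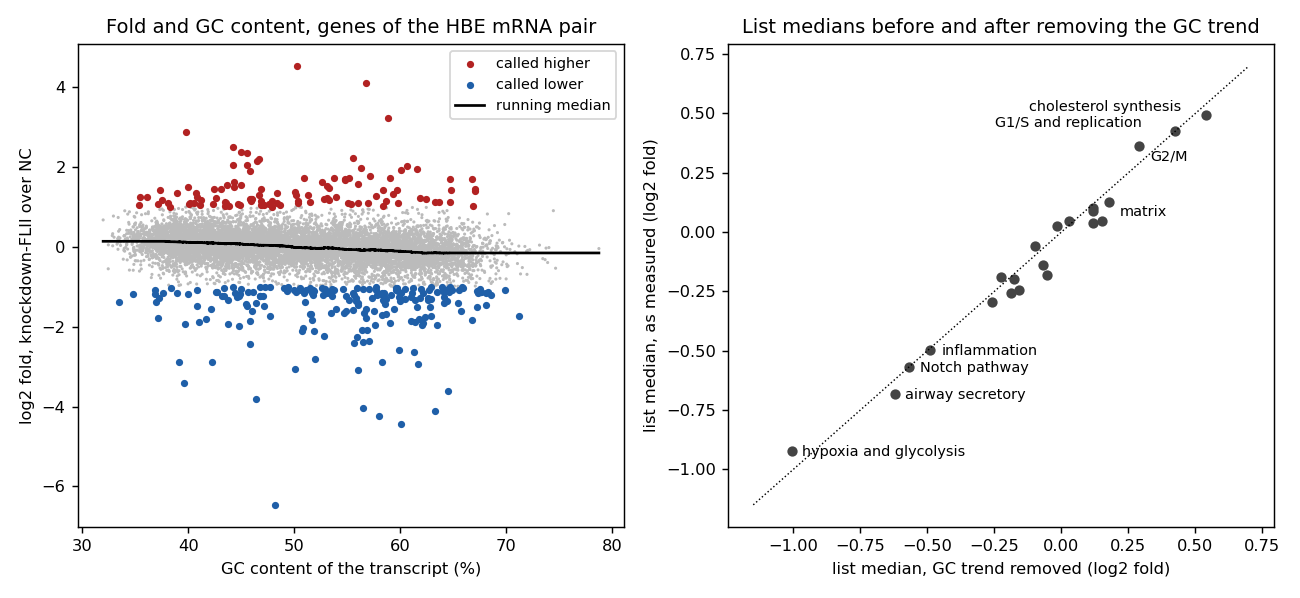
Left, log2 fold (knockdown-FLII over NC, HBE mRNA) of each gene against the GC content of its transcript (percent), with called genes in colour and the running median as a line. Right, medians of 22 gene lists as measured against those with the GC trend removed; the dotted line marks equality, and medians run from −0.92 and −1.01 for hypoxia to 0.49 and 0.54 for cholesterol synthesis.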

How the data were processed

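Per the labels, polyA RNA of HBE cells was made into libraries with an NEBNext mRNA kit for Illumina. Per the file headers, the authors' files hold read counts and RPKM values per RefSeq gene, with its length and splice variants merged, and the deposited RPKM equals the count scaled to length and library total in 100.0% of values, within 1%. The submitters' processing notes name GRCh37 and hg19. On the aligner, the counter, its use of strand or any batch nothing is given in the sources used here.

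Counts were scaled with TMM (edgeR 4.0.16, R 4.3.3) within each pair. A call needed an absolute log2 fold of 1 and a 95% exact interval that excluded 0. PCR duplicates cannot be seen in counts. Fold, interval and trend code was tested on simulated data. GC content came from GENCODE transcripts, matched for 99.3% of tested genes. Promoters came from RefSeq. The ribosome-bound libraries were not used because FLII goes against their labels, and the other H1299 libraries were not needed, except vector cytosol and nuclear libraries for line-specific genes.

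The members, lists and rules were chosen with earlier results of these data known. Genes named were drawn from FLII and the 15 called in each direction with the interval bound farthest from 0. Some of these were not described above, such as IGFN1 (4.09) among higher and NDRG1 (−4.25) among lower genes. Up to 5 called members of each list in each direction were added. For lists or roles with fewer than 3 calls, up to 4 members with the most reads were added. Roles of 10 or fewer genes may be given in full. Genes outside the lists, and other uncalled members, were chosen after their values were seen. Alternatives were total counts, DESeq2 1.42.0 size factors, read minimums of 20 and 1, 5 reads added, RPKM with 1 added, GC or length trends removed, NM entries only, genes of H1299 left out and, added after seeing the data, total counts with the GC trend removed.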

Additional observations from a re-analysis of the deposited data

Results flagged for a closer look

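STARD5, a lipid-binding protein of the START family, was called in opposite directions in separate HBE pairs. In mRNA it had 34 reads in knockdown-FLII and 71 in NC (log2 fold −1.04, −1.69 to −0.44), and in nuclear RNA 43 reads in knockdown-FLII and 16 in NC (1.21, 0.38 to 2.16). The mRNA fold was lower by a log2 difference of −2.25, which rests on 1 library a group in each pair and was not tested.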

How the results depend on the processing

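Counts of calls moved with scaling and with the read minimum. Higher genes numbered 107 in the comparison as reported, 165 with total counts, 255 with at least 20 reads and 306 with at least 1 read. Lower genes numbered 199 as reported, 370 with at least 20 reads and 449 with at least 1 read. Lower minimums test more genes, 12635 and 17159. RPKM with 1 added gave 159 higher and 167 lower, of which 76 and 99 were among those reported, and moved the median of all genes by 0.12, so higher genes made up 48.8% of its calls. The other alternatives gave 98 to 109 higher and 146 to 201 lower. None of the 95 named genes changed sign under the 11 alternatives in which it had a value. Calls were lost for 11 of them with total counts, 12 with the GC trend removed (12 also with both), 29 with RPKM, 3 with 5 reads added, and 1 each with the length trend removed and with median-of-ratios scaling. Beyond these, among genes outside the lists, the call of ACTG1 was lost with total counts, RPKM and the GC trend removed, that of DKK1 with the GC trend removed, that of PTGS2 with total counts and RPKM, and that of LRP1 with RPKM. Relative to all genes, the medians of 21 of 23 lists kept their sign. Those of integrin (−0.10 to 0.02) and interferon genes (−0.08 to 0.03) did not.

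No paired analysis was possible because each group has 1 library and no replicate number. Calls on few reads are the least precise: 95 called genes had fewer than 50 reads in 1 library.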
